A study of Mus musculus with 238 samples.

Results

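Tac1, Penk and Pdyn encode the precursors of the main peptide transmitters of striatal projection neurons. They are 3 of the 21076 genes in the count table, all 3 were found in it by symbol, and their values are given in every brain region and by treatment. The genes were chosen by measured values, their levels across the brain regions of these same libraries, so the levels by region are a description and carry no test. The treatment comparisons come from fits over all genes. RNA was measured by bulk sequencing in 238 libraries from C57BL/6JN mice aged 19 months, 229 of them from 15 brain regions and 9 from liver. In the diet cohort, female mice were fed freely (ad libitum, AL, 4 mice) or were dietary restricted (aDR, 5 mice, with their liver libraries labelled DR). In the plasma cohort, male mice received retro-orbital injections of plasma from young mice (YMP, 3 mice) or of saline buffer (PBS, 4 mice). No group carries a transgene or a deletion, and all groups share strain and age. Sex follows the cohort, so sex and cohort cannot be told apart, and every comparison is made within a cohort.

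Medium spiny neurons of the striatum fall into the direct pathway, whose cells carry the D1 dopamine receptor and make Tac1 and Pdyn, and the indirect pathway, whose cells carry the D2 receptor and make Penk. Tac1 is cut into substance P and neurokinin A, which act on tachykinin receptors. Penk gives the enkephalins, which act on delta and mu opioid receptors, and Pdyn gives the dynorphins, which act on the kappa opioid receptor. All 3 genes are also used outside the striatum, for example by peptide neurons of the hypothalamus and brainstem and by some cortical interneurons.

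Tac1 lies at chr6:7554879-7565834 on the plus strand of GRCm38, with 3399 merged exon bases in GENCODE M21. Penk lies at chr4:4133531-4138819 on the minus strand, with 1634 merged exon bases, and Pdyn at chr2:129686565-129699844 on the minus strand, with 2887. The exons of Penk share 233 bases with those of A830012C17Rik on the other strand, and because the libraries are unstranded, reads there cannot be told apart. RefSeq promoter windows (GRCm38.p6) matched 2 of the 3 genes, Tac1 and Pdyn. They are shown because transcription of both precursors is known to follow activity-driven signalling through cyclic AMP, which acts on the element TGACGTCA or its short form CGTCA. Each stretch begins 250 bases before a RefSeq start, leaves out bases inside an annotated exon of the gene, and has CGTCA matches on either strand in capitals.
Tac1 (chr6:7554811-7554878, plus strand): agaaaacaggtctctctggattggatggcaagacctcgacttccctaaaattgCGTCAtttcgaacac
Pdyn (chr2:129699939-129700188, minus strand): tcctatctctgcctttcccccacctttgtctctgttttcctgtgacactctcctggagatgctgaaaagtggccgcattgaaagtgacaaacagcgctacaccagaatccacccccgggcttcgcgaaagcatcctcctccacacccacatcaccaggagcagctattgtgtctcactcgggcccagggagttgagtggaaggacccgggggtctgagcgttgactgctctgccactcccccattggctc
In the whole window of 250 bases, Tac1 held CGTCA at 2 places, 197 to 193 and 43 to 39 bases before the RefSeq start. CGTCA is found in 17.7% of all 32817 windows of that length. Neither Tac1 nor Pdyn held TGACGTCA (in 1.55% of windows), TGANTCA (6.75%) or TATAAA (12.4%), all read on both strands. No match to CGTCA was in the Pdyn window shown. A second RefSeq start of Pdyn (chr2:129698658) lies inside the gene, so its window is not shown. That window held none of these matches either. A match is a run of letters only and says nothing of binding.

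Library totals ranged from 0.606 to 32.4 M counts, with a median of 8.44 M. Levels are given in CPM, the counts of a gene per M counts of its library total. The labelled tissues were checked against marker lists. The sum of 10 spiny neuron markers (among them Ppp1r1b, Rgs9 and Pde10a) ran from 6478 to 13106 CPM in Caudate putamen, the mouse dorsal striatum. It ran from 3527 to 8997 CPM in Corpus callosum and from 2664 to 7230 CPM in SVZ, and reached at most 2050 CPM in a library of any other tissue. Corpus callosum is a fibre tract, and its libraries carried oligodendrocyte markers at 18803 to 30760 CPM along with this striatal signal. Choroid plexus markers, led by Ttr, varied from 8.76 to 18618 CPM among Corpus callosum libraries and from 27.3 to 19655 CPM among SVZ libraries. In a bulk sample, fewer cells of a type and less RNA per cell cannot be told apart.

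Tac1 was highest in Caudate putamen in each of the 4 groups. In AL mice its levels there were 369, 418, 520 and 529 CPM, from 3938 to 9763 counts. Corpus callosum followed with 212, 254 and 393 CPM, which overlapped the Caudate putamen range. SVZ came next with 84.6, 92.5, 163 and 188 CPM, and it overlapped Hypothalamus, at 90.0, 95, 122 and 154 CPM. Hypothalamus in turn overlapped Medulla, whose 4 AL libraries spread from 43.5 to 96.9 CPM. From Entorhinal cortex, at a median of 36.4 CPM, down to Cerebellum, at a median of 1.16 CPM, every neighbouring pair of regions in the AL order overlapped. The PBS order began with the same 4 regions, with Hypothalamus at 56.0, 74.2 and 81.1 CPM, below all 4 SVZ libraries. No liver library held a Tac1 count, which allows at most 0.247 to 0.857 CPM per library at 3 counts of its total. Limits of this kind cover counting error only.

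Penk had the widest reach of the 3 genes. Its AL levels in Caudate putamen were 2835, 3299, 3343 and 3985 CPM, above every Corpus callosum library (1512, 1525 and 2817 CPM). SVZ held 655, 676, 890 and 1250 CPM in AL mice, below Corpus callosum and above the remaining regions. Olfactory bulb (328 to 386 CPM), Medulla (310 to 410 CPM) and Entorhinal cortex (229 to 315 CPM) formed an overlapping run. Hypothalamus, Cerebellum and Pons were lower and overlapped one another, and the AL medians of the other brain regions ran from 58.5 CPM in Motor cortex to 8.77 CPM in Thalamus. In Cerebellum Penk stood at 145, 154, 157 and 162 CPM in AL mice. Different genes are set side by side per kilobase of merged exon. That length joins all annotated transcripts (5 for Tac1, 2 for Penk and 3 for Pdyn), whether or not they are expressed. An order between genes on this scale therefore depends on it. The AL median of Penk in Cerebellum was 95.3 CPM per kb (range 88.7 to 99.3). The same values were 0.342 CPM per kb for Tac1 (0.0805 to 2.51) and 0.257 for Pdyn (0.0316 to 0.561). In Olfactory bulb the AL medians were 216 CPM per kb for Penk, 1.79 for Tac1 and 0.692 for Pdyn. Liver libraries held between 0 and 3 Penk counts, at most 0.307 CPM.

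Pdyn was spread more evenly over its high regions. Its AL levels were 97.9, 125, 126 and 198 CPM in Caudate putamen and 68.1, 110 and 162 CPM in Corpus callosum. Hypothalamus held 64.1, 90.2, 124 and 128 CPM, and SVZ 66.7, 82.3, 95.5 and 121 CPM. These 4 regions overlapped in order, while none of the 4 overlapped Hippocampus (anterior), the next region, at 23.8 to 46.4 CPM. Visual cortex (32.8, 35.9, 36.3 and 40.4 CPM) and Motor cortex (24.5, 25.3, 27.1 and 27.8 CPM) had narrow ranges that did not overlap. In YMP mice the order began with SVZ, at 163, 170 and 221 CPM, overlapping Caudate putamen at 133, 148 and 226 CPM. Pdyn was at most 1.62 CPM in Cerebellum, where 4 of the 15 libraries held no count, and no liver library held one.

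Thalamus gave Pdyn values of 2 kinds. AL mice had 0.968, 2, 21.7 and 44.8 CPM, and aDR mice had 0.984, 3.26, 32.0, 32.3 and 41.4 CPM. PBS mice had 0.822, 1.33, 1.36 and 32.4 CPM, and YMP mice 3.06, 20 and 32.5 CPM. In each group some libraries were under 4 CPM and at least 1 was at 20 CPM or more.

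**Figure D1:**
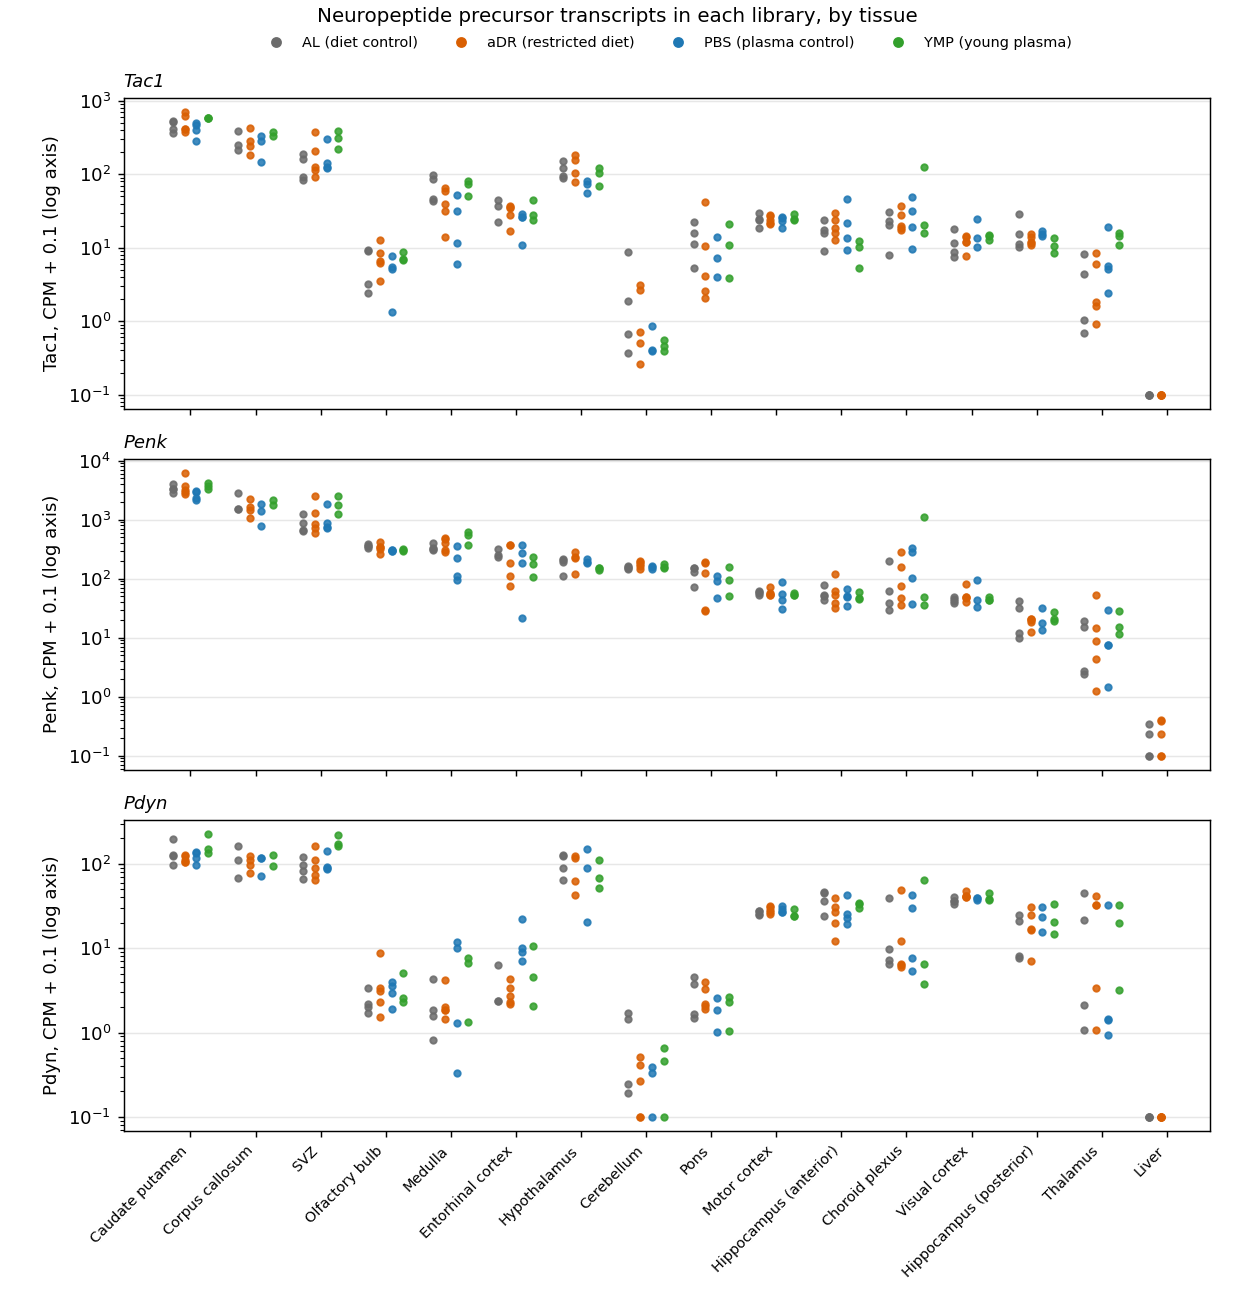
Level of each gene in every library by tissue, as CPM + 0.1 on a log axis, with tissues in the order of the AL median of Penk and one point per mouse coloured by group. All 3 genes are high in Caudate putamen, Corpus callosum and SVZ, Penk stays between 145 and 199 CPM in Cerebellum, and Thalamus shows Pdyn at about 1 CPM in some mice and above 20 CPM in others.

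On the scale per kilobase of merged exon, Penk was the highest of the 3 genes in 224 of 229 brain libraries, and Pdyn was in the other 5, all from Thalamus. In Caudate putamen of AL mice the medians were 2033 CPM per kb for Penk, 138 for Tac1 and 43.5 for Pdyn. Tac1 stood above Pdyn per kb in all 16 libraries of Caudate putamen and all 12 of Corpus callosum, and in 15 of 16 from SVZ. The order was mostly the other way in 4 regions, where Tac1 exceeded Pdyn per kb in 1 of 16 Motor cortex libraries, in none of 15 from Visual cortex, in 3 of 16 from Hippocampus (anterior) and in 4 of 15 from Hippocampus (posterior). Entorhinal cortex was unlike the other cortical regions, with Tac1 above Pdyn in 14 of 15 libraries. Hypothalamus was mixed, with Tac1 above Pdyn in 9 of 14 libraries.

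Within the tissues that carry striatal signal, Tac1 and Penk kept a narrower ratio to the spiny neuron markers than Pdyn did. Over the 44 libraries of Caudate putamen, Corpus callosum and SVZ, Tac1 ran from 84.6 to 713 CPM, an 8.43-fold range. Per 1000 CPM of the 10 summed markers it ran from 31.1 to 61.7, a 1.98-fold range. Penk ran over a 10.4-fold range in CPM and a 2.15-fold range per marker sum (221 to 476). Pdyn ran over 3.51-fold in CPM and 5.81-fold per marker sum, from 8.08 to 47.0. The median of Pdyn per 1000 marker CPM was 12.3 in Caudate putamen, 18.6 in Corpus callosum and 27.7 in SVZ. For Tac1 the same medians were 47.9, 46.0 and 45.3. These 44 libraries share mice and depth differences, so the ranges are a description.

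**Figure D2:**
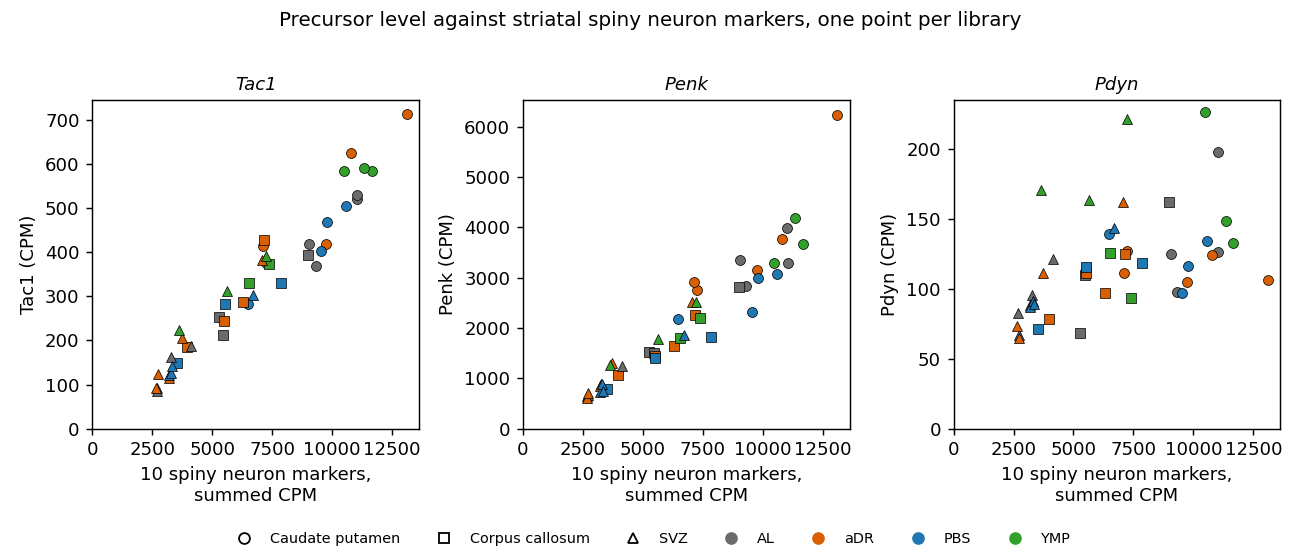
CPM of each gene (vertical axis) against the summed CPM of 10 spiny neuron markers (horizontal axis) in the 44 libraries of Caudate putamen (circles), Corpus callosum (squares) and SVZ (triangles), coloured by group. Tac1 and Penk climb along a band from SVZ to Caudate putamen, up to 713 and 6242 CPM in the same aDR library, while Pdyn in SVZ reaches 221 CPM, as high as in Caudate putamen.

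Genes with a like regional pattern were ranked by the Pearson correlation of mean log2(CPM + 1) over the 15 brain regions of AL mice, among 13465 genes, each reaching a mean of 5 CPM in some region. These regions share mice and libraries, so the values describe the pattern only. For Tac1 the highest were Rgs2, a regulator of G-protein signalling (r = 0.91, and 0.97 in PBS mice), Sytl5 (0.91), Eif3b (0.89), Dnajc2 (0.88) and Tvp23b (0.87). For Penk they were Arhgap19 (r = 0.93, and 0.86 in PBS mice), Fam184b (0.92), Il17rc (0.89), Ftl1, the ferritin light chain (0.88), and Nmnat3 (0.88). For Pdyn they were Dclk3, a kinase enriched in striatum (r = 0.89, and 0.92 in PBS mice), Scarb1 (0.88), Kcnk2 (0.87), Kif17 (0.87) and Mak (0.86). Among the members, Tac1 and Penk correlated at 0.75, Tac1 and Pdyn at 0.71, and Penk and Pdyn at 0.32 in AL mice. In PBS mice the same pairs stood at 0.66, 0.90 and 0.46, so the pair with the highest value was not the same in both groups.

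Plasma from young mice was compared with PBS to ask how a systemic treatment in old age is reflected in each region. In Caudate putamen all 3 precursors were higher on average in YMP mice, and none passed the test. Tac1 was 283, 403, 468 and 505 CPM in PBS mice and 583, 584 and 590 CPM in YMP mice. Penk was 2171, 2316, 2993 and 3077 CPM in PBS mice and 3302, 3675 and 4185 CPM in YMP mice. The groups did not overlap for Tac1 and Penk, as for 12% of the 13539 genes tested there. Pdyn was 97.2, 116, 134 and 139 CPM in PBS mice and 133, 148 and 226 CPM in YMP mice, and these ranges overlapped. The log2 differences were 0.49 (SE 0.17, adjusted p = 0.474 by edgeR's quasi-likelihood test) for Tac1, 0.49 (SE 0.15, adjusted p = 0.474) for Penk and 0.47 (SE 0.19, adjusted p = 0.481) for Pdyn, with 3 YMP and 4 PBS mice. The unadjusted p of each was under 0.05 (0.0183, 0.00965 and 0.0341 by edgeR), as was that of 1379 of all genes tested, and 0% of genes were called. The median log2 difference over all genes was -0.0086.

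Cell type markers in these Caudate putamen libraries also differed on average between the plasma groups. The PBS library of mouse 76 held oligodendrocyte markers at 34222 CPM, choroid plexus markers at 3451 CPM and the lowest spiny marker sum, 6478 CPM. Oligodendrocyte markers were lower in YMP mice for 5 of 5 genes, with a median log2 difference of -0.93 and none called. The 10 spiny neuron markers were all higher in YMP mice, with a median log2 difference of 0.27 and none called, and so were 5 of 5 markers of each of the direct and indirect pathways (medians 0.27 and 0.29). Without mouse 76 the log2 differences were 0.35 for Tac1, 0.41 for Penk and 0.55 for Pdyn. Per 1000 CPM of the spiny markers, Tac1 was 42.3 to 47.9 in PBS mice and 50.1 to 55.6 in YMP mice, without overlap, as for 20.2% of genes on that measure. This comparison gave an exact permutation p of 0.0571, which is the smallest that 3 against 4 mice allow (adjusted p = 0.257 over 18 such tests). For Penk and Pdyn the same ratios overlapped between groups. The part of tissue makeup in the Caudate putamen values was not tested.

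**Figure D3:**
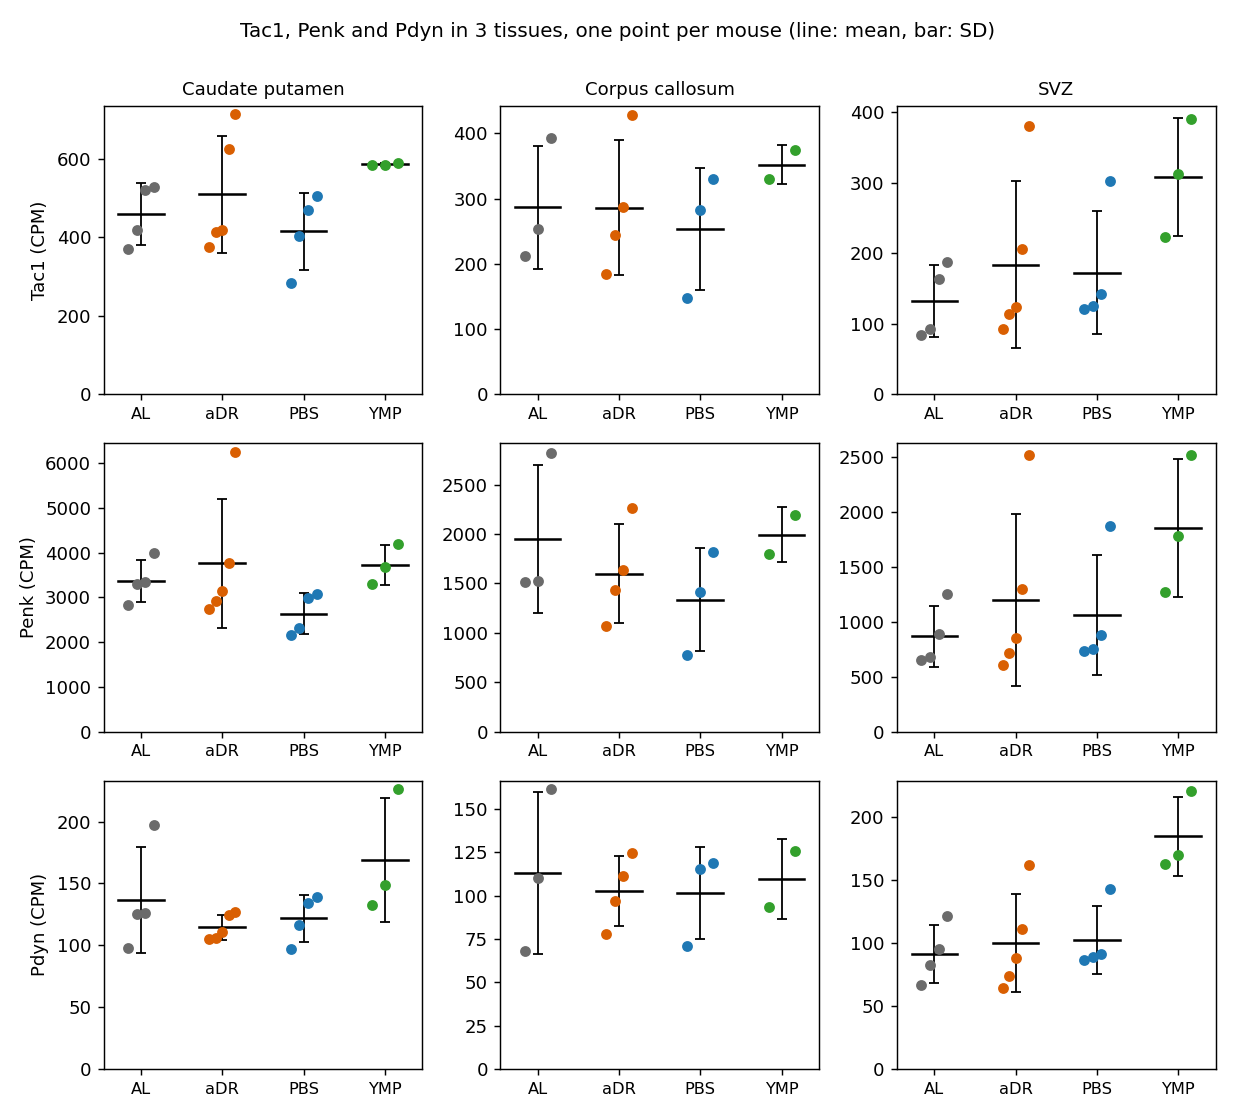
CPM of Tac1, Penk and Pdyn (rows) in Caudate putamen, Corpus callosum and SVZ (columns), one point per mouse, with the group mean as a line and the SD as a bar, each axis starting at 0. The YMP libraries of Caudate putamen sit at 583 to 590 CPM for Tac1, above all PBS libraries, and in SVZ 1 PBS library stands far above the other 3 for each gene.

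In SVZ, the wall of the lateral ventricle beside the striatum, the differences between plasma groups were larger and less even. Pdyn was 86.7, 89.3, 91.4 and 143 CPM in PBS mice and 163, 170 and 221 CPM in YMP mice. These groups did not overlap, as for 14.1% of the 14120 genes tested in SVZ. Tac1 was 122, 126, 142 and 302 CPM in PBS mice and 224, 312 and 391 CPM in YMP mice, and Penk 736, 747, 879 and 1870 CPM against 1266, 1777 and 2515 CPM. In both genes the PBS library of mouse 72 lay inside the YMP range. The log2 differences were 0.81 for Pdyn (SE 0.23, adjusted p = 0.199 by edgeR), 0.79 for Tac1 (SE 0.38, adjusted p = 0.411) and 0.77 for Penk (SE 0.40, adjusted p = 0.452), and 0% of genes were called. Without mouse 72, Tac1 (1.27, adjusted p = 0.0352 by edgeR) and Pdyn (1.06, adjusted p = 0.0217) passed and Penk (1.25, adjusted p = 0.0512) did not. Mouse 72 held the highest PBS level of each gene, so leaving it out was bound to widen each difference. DESeq2 called Pdyn (adjusted p = 0.0240) with all 7 mice. The 0% above is that of edgeR with all 7 mice. The share of all genes called without mouse 72 or by DESeq2 is not given here, so these calls cannot be set against it.

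Marker genes of other cell types also differed between the plasma groups in SVZ. Choroid plexus markers summed to 2849 to 19655 CPM in PBS mice and to 27.3 to 50.7 CPM in YMP mice, with 6 of 6 genes lower (median log2 difference -7.11, none called). Markers of cortical excitatory neurons summed to 13.5 to 54.7 CPM in PBS mice and 121 to 216 CPM in YMP mice, with 5 of 5 genes higher (median 2.89, none called). Spiny neuron markers were higher for 10 of 10 genes (median 0.42, none called). Mouse 72 had the highest choroid plexus sum and, at 6705 CPM, the highest spiny sum of the PBS libraries. The part of tissue makeup in the SVZ values was not tested. Relative to 1000 CPM of spiny markers, the groups did not overlap for any of the 3 genes, as for 5.81% of all genes tested in SVZ on that measure. Tac1 was 38.0 to 45.1 in PBS mice and 54.1 to 61.7 in YMP mice, Penk 224 to 279 against 315 to 349, and Pdyn 21.4 to 27.7 against 29.0 to 47.0. Each of the 3 had an exact permutation p of 0.0571, the smallest possible, and an adjusted p of 0.257.

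Corpus callosum held 2 YMP and 3 PBS libraries. Tac1 was 148, 282 and 329 CPM in PBS mice and 330 and 374 CPM in YMP mice, without overlap, as for 23.5% of the genes tested there. Its log2 difference was 0.47 (SE 0.31, adjusted p = 0.813 by edgeR). Penk (0.57, adjusted p = 0.771) and Pdyn (0.10, adjusted p = 0.966) overlapped, and 0.184% of genes were called. Per 1000 CPM of spiny markers Penk was 221 to 255 in PBS mice and 275 and 297 in YMP mice, without overlap, as for 14.7% of genes on that measure, while Tac1 and Pdyn overlapped. Choroid plexus markers were at 5011 to 18618 CPM in the PBS libraries and at 8.76 and 20.8 CPM in the YMP libraries, and Ttr, Kl, Aqp1 and Kcne2 were among the genes called lower.

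Outside the striatal tissues the plasma groups separated for 3 more gene and region pairs, none of which passed the test. Penk in Hypothalamus was 183, 193 and 217 CPM in PBS mice and 138, 150 and 152 CPM in YMP mice, a log2 difference of -0.43 (SE 0.10, adjusted p = 0.955 by edgeR), where 9.55% of genes did not overlap and 0% were called. Tac1 there pointed the other way, at 0.49 (SE 0.21, adjusted p = 0.998 by edgeR), with overlapping groups of 56.0, 74.2 and 81.1 CPM and 68.5, 105 and 121 CPM. Penk in Medulla was 93.6, 109, 220 and 358 CPM in PBS mice and 376, 557 and 622 CPM in YMP mice. Its log2 difference of 1.43 (SE 0.39, adjusted p = 0.439 by edgeR) stood beside 8.2% of genes without overlap and 0% called. Tac1 in Medulla was 5.82, 11.5, 31.6 and 52.1 CPM in PBS mice and 50.9, 74.5 and 80.4 CPM in YMP mice (log2 difference 1.48, SE 0.55, adjusted p = 0.483 by edgeR). Tac1 in Hippocampus (posterior) was 14.3, 15.5 and 17.1 CPM in PBS mice and 8.32, 10.5 and 13.5 CPM in YMP mice. That difference was -0.51 (SE 0.18, adjusted p = 1 by edgeR), where 5.76% of genes did not overlap and 0% were called. In Hippocampus (anterior) Tac1 was also lower on average, at -1.35 (SE 0.51, adjusted p = 0.683 by edgeR), with overlapping groups.

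Over all brain regions, 43 tests of the 3 genes could be made between YMP and PBS, since Tac1 and Pdyn were too low in Cerebellum. Of these, 31 log2 differences were above 0, 12 were below, and 0 were called by edgeR, against 0.0127% of the 205500 tests of all genes in the same regions. Unadjusted p was under 0.05 in 10 of the 43 (6.11% of all tests), and the groups did not overlap in 7, against 9.23% of all tests. Tac1 was above 0 in 11 of 14 regions, Penk in 12 of 15 and Pdyn in 8 of 14. The 43 tests share mice and libraries, so they are not independent and these counts are a description.

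Dietary restriction was compared with free feeding in the same way. In Caudate putamen of aDR mice Tac1 was 375, 413, 419, 624 and 713 CPM, against 369 to 529 CPM in AL mice. Penk was 2749, 2920, 3148, 3761 and 6242 CPM, against 2835 to 3985 CPM. Pdyn was 105, 106, 111, 124 and 127 CPM, against 97.9 to 198 CPM. The groups overlapped for all 3 genes, and the log2 differences were 0.22 (SE 0.24, adjusted p = 0.752 by edgeR) for Tac1, 0.24 (SE 0.28, adjusted p = 0.762) for Penk and -0.21 (SE 0.18, adjusted p = 0.7) for Pdyn, with 0.0146% of genes called. The library of mouse 64 held the highest Tac1 and Penk levels and the highest spiny marker sum of the tissue, 13106 CPM, with Pdyn at 106 CPM. Without it the log2 differences of Tac1 and Penk were 0.013 and -0.083.

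In SVZ of aDR mice Tac1 was 92.4, 114, 124, 206 and 381 CPM, Penk 602, 710, 850, 1300 and 2512 CPM, and Pdyn 64.5, 73.5, 88.3, 112 and 162 CPM, all overlapping the AL mice. Mouse 64 was again the highest for each gene, with a spiny marker sum of 7067 CPM against 2664 to 3725 CPM in the other 4 aDR libraries. The log2 differences of 0.50, 0.49 and 0.17 had adjusted p-values of 0.981, 0.981 and 0.991 by edgeR, where 0.0212% of genes were called. Without mouse 64 they were 0.036, 0.019 and -0.083. In Corpus callosum and Hypothalamus the aDR and AL groups overlapped for all 3 genes as well, with log2 differences from -0.27 to 0.22.

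Of the 44 diet tests over the brain, 3 had an unadjusted p under 0.05, close to the 6.24% of all tests that did, and these 3 are given as values only. Pdyn in Visual cortex was 40.0, 40.1, 40.9, 41.6 and 47.9 CPM in aDR mice and 32.8 to 40.4 CPM in AL mice, a log2 difference of 0.21 (SE 0.08, adjusted p = 0.407 by edgeR, 0.202% of genes called). Penk in Cerebellum was 149, 166, 180, 193 and 199 CPM in aDR mice and 145 to 162 CPM in AL mice, also 0.21 (SE 0.08, adjusted p = 0.28 by edgeR, 0.0524% of genes called). Tac1 in Medulla was 13.7, 31.7, 39.3, 59.3 and 64.4 CPM in aDR mice and 43.5, 46.7, 86.7 and 96.9 CPM in AL mice. Its log2 difference was -0.79 (SE 0.36, adjusted p = 0.735 by edgeR, 0.00714% of genes called). The groups overlapped in each of these. Like the plasma tests, the 44 diet tests share mice and libraries. Of the 44 tests, 24 log2 differences were above 0 and 20 below, 0 were called by edgeR against 0.0525% of the 205693 tests of all genes, and the groups overlapped in all 44, while 3.12% of all tests had groups that did not.

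**Figure D4:**
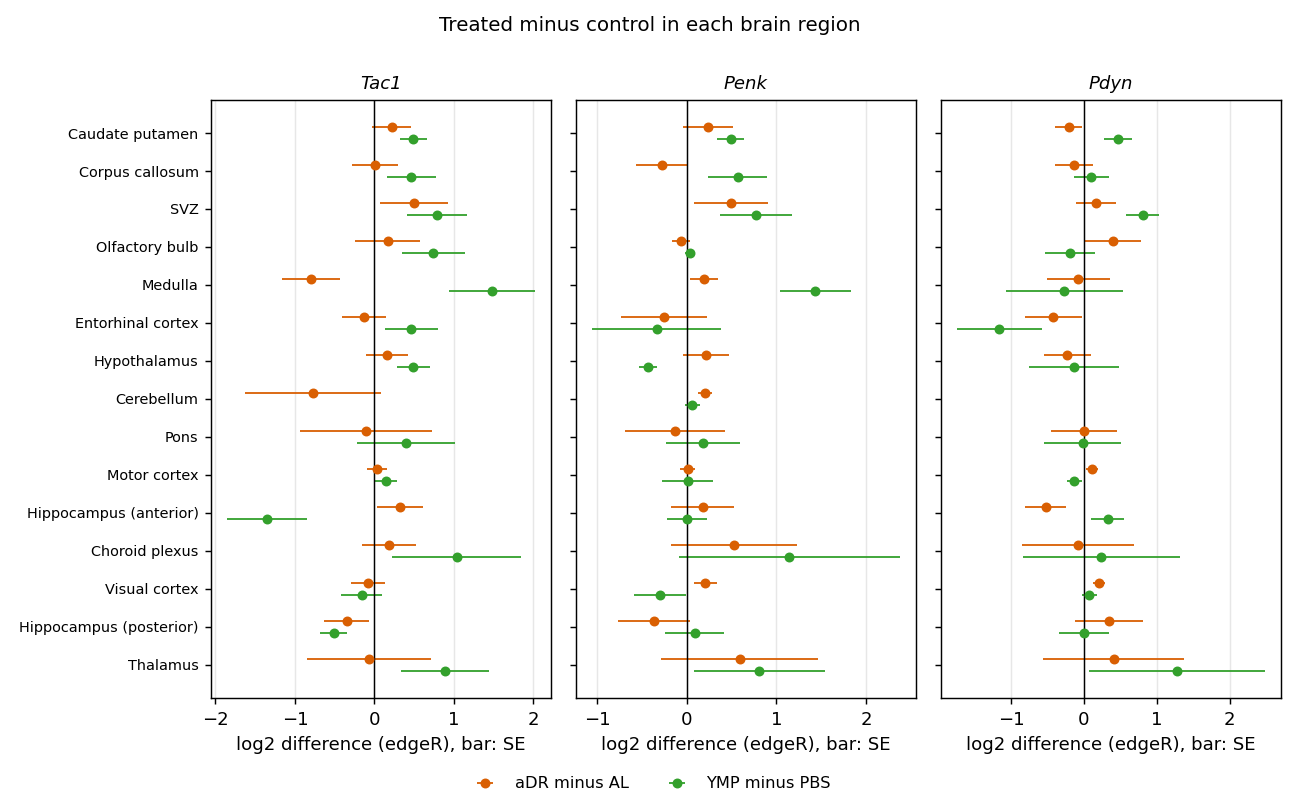
log2 difference between treated and control mice for each gene in each brain region by edgeR, with the SE as a bar, for aDR minus AL (orange) and YMP minus PBS (green); pairs too low to be tested have no point. None of the 87 points passed the adjusted threshold; the plasma points of Caudate putamen lie between 0.47 and 0.49 for all 3 genes.

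To ask whether the genes differed across the brain as a whole, each mouse was given 1 value per gene, its deviation over the 15 regions after the region means were removed, on the log2 CPM scale. Tac1 mouse values in the plasma cohort were -0.25, -0.20, -0.15 and -0.13 in PBS mice and 0.16, 0.27 and 0.29 in YMP mice. The groups did not overlap, as for 10.1% of the 15768 genes tested. The difference was 0.42 (SE 0.05, adjusted p = 0.200 by limma), higher in 3 of 3 YMP mice than in any PBS mouse, and did not pass. Without Caudate putamen and SVZ it was 0.37 (adjusted p = 0.593 by limma). Penk (0.33, SE 0.19, adjusted p = 0.675) and Pdyn (0.22, SE 0.10, adjusted p = 0.595) overlapped between groups. Leaving out YMP mouse 77 gave 0.16 for Penk, leaving out mouse 80 gave 0.21 and leaving out mouse 76 gave 0.50, the latter 2 being PBS mice, and Pdyn was 0.14 without Caudate putamen and SVZ. Here limma called 0% of genes, with 1315 at an unadjusted p under 0.05.

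In the diet cohort the mouse values of AL and aDR mice overlapped for each gene, while they did not for 8.3% of the 15616 genes tested. Tac1 ran from -0.37 to 0.32 in aDR mice and from -0.27 to 0.36 in AL mice. The differences were -0.05 for Tac1 (SE 0.16, adjusted p = 0.923 by limma), 0.05 for Penk (SE 0.18, adjusted p = 0.932) and -0.01 for Pdyn (SE 0.10, adjusted p = 0.987), where 1.74% of genes were called. The highest Penk value, 0.65, was that of mouse 64. A test of whether the treatment difference varied between regions called none of the 3 genes in either cohort. The lowest p was 0.101, for Tac1 in the plasma cohort (adjusted p = 0.837 by edgeR, 0.786% of genes called), and 0.0128% of genes were called in the diet cohort.

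**Figure D5:**
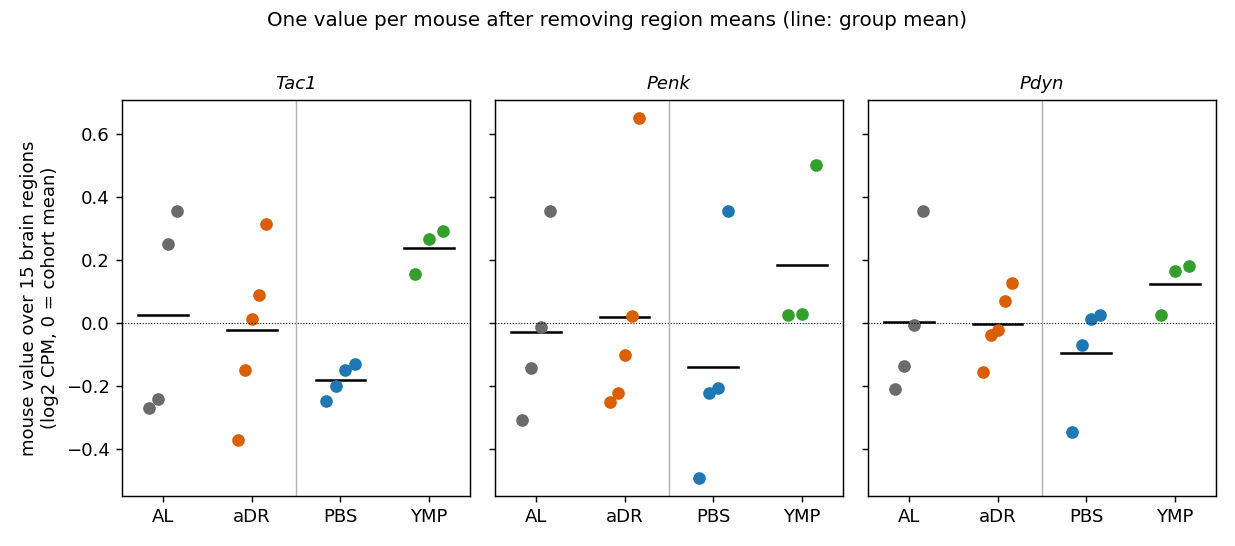
One value per mouse and gene over the 15 brain regions (log2 CPM after the region means were removed, 0 being the cohort mean), by group, with group means as lines. The 3 YMP mice lie at 0.16 to 0.29 for Tac1 and the 4 PBS mice at -0.25 to -0.13, while the groups overlap in the other panels and in the diet cohort.

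Ratios between the genes within a library do not depend on library scaling. In Caudate putamen the geometric mean of Tac1 counts over Penk counts was 0.136 in AL, 0.137 in aDR, 0.155 in PBS and 0.158 in YMP mice. In SVZ it was 0.149, 0.154, 0.164 and 0.169. Pdyn over Penk was 0.0396 in AL and 0.0319 in aDR mice in Caudate putamen, and 0.0462 in PBS and 0.0445 in YMP mice. In SVZ these were 0.107, 0.0915, 0.103 and 0.103. Of 12 ratio tests (3 ratios, 2 tissues and 2 cohorts), the lowest exact permutation p was 0.27 and the lowest adjusted p 0.905. With 3 against 4 mice no p below 0.0571 was possible, so these tests do not show that the ratios were alike. The largest log2 difference was that of Pdyn to Tac1 in Caudate putamen of the diet cohort, -0.33 with SDs of 0.45 in aDR and 0.29 in AL mice. The smallest was -0.0023, for Pdyn to Penk in SVZ of the plasma cohort, with SDs of 0.34 in YMP and 0.30 in PBS mice.

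The receptors for these peptides had patterns of their own. Oprk1, the kappa receptor, had AL medians of 38.2 CPM in Caudate putamen and 40.9 CPM in Hypothalamus, where Pdyn was also high, and 0.335 CPM in Visual cortex. Tacr1, the receptor preferred by substance P, had 37.3 CPM in Caudate putamen and 24.8 CPM in Olfactory bulb. Oprd1, the delta receptor, reached 15.0 CPM in Olfactory bulb and 9.04 CPM in Caudate putamen. Oprm1, the mu receptor, was highest in Thalamus at 7.73 CPM, and Oprl1, the nociceptin receptor, in Hypothalamus at 140 CPM. Tacr3, the receptor preferred by neurokinin B, was highest in Hypothalamus at 24.0 CPM, and Tacr2 stayed at or under 1.34 CPM in every region.

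Across regions none of the 7 receptor genes passed in either cohort. In the plasma cohort 4 were above 0 and 3 below (median log2 difference 0.08, all genes -0.0037). Oprd1 had the lowest p there (0.22, SE 0.09, adjusted p = 0.578 by limma). In the diet cohort 1 was above 0 and 6 below (median -0.13, all genes -0.0062), with Tacr3 at -0.26 (SE 0.08, adjusted p = 0.158 by limma). In Caudate putamen, 5 of 6 tested receptors were above 0 in YMP mice and 1 of 6 in aDR mice, with none called. Oprk1 had a log2 difference of 0.91 there in the plasma cohort (SE 0.25, adjusted p = 0.474 by edgeR).

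Of the related precursors, Tac2 (neurokinin B), Pomc and Pnoc could be tested across regions, with none called in either cohort. Pnoc differed by -0.29 (SE 0.10, adjusted p = 0.529 by limma) between YMP and PBS mice. Of the 11 genes of peptide processing and granules, 8 were above 0 in both cohorts (median 0.06 for diet and 0.03 for plasma) and none was called. The granule protein gene Scg2 had a plasma difference of 0.25 (SE 0.04, adjusted p = 0.200 by limma). In the diet cohort Scg5, a chaperone of the convertase Pcsk2, differed by 0.16 (SE 0.04, adjusted p = 0.0822 by limma).

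In the list of 6 peptide degradation genes, 3 were above 0 and 3 below across regions in aDR mice (median -0.0045). Ece2, an endothelin-converting enzyme, was lower by 0.16 on the log2 scale (SE 0.04, adjusted p = 0.0484 by limma), just under the threshold. That fit called 272 of 15616 genes (1.74%), and 144 without an intensity trend. None of that list was called in the plasma cohort. All 6 activity-linked transcription genes (Fos, Fosb, Junb, Egr1, Nr4a1 and Arc) were above 0 across regions in YMP mice, with a median of 0.22 and none called. In aDR mice 2 were above 0 and 4 below, with a median of -0.02. Of the marker lists, the endothelial genes Cldn5 (-0.48) and Flt1 (-0.26) and the microglial gene Cx3cr1 (-0.13) were lower in aDR mice across regions (adjusted p = 0.0193, 0.0158 and 0.0457 by limma). These are named because they were called, in the fit that called 1.74% of all genes. The other genes of their lists are not given, so the calls do not describe the cell types. None of the 20 spiny neuron genes was called across regions in either cohort.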

How the data were processed

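Bulk RNA was isolated with RNeasy columns and made into libraries by Smart-Seq2 and Nextera XT without strand information, per the labels. The submitters' processing notes name Trim Galore 0.3.7, STAR 2.5.3a, DESeq2 and the build GRCm38, with no role given for DESeq2. The counting program and its annotation are not given in the sources used here. The deposited values are whole-number counts per gene, made by the authors, for 21076 genes in 238 libraries, and 537 genes had no count anywhere. Groups came from the treatment label, and each mouse is 1 replicate. Of 357 pairs of replicates, none agreed within sampling noise (lowest chi-square per degree of freedom 1.29).

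From the counts, CPM of the library total was computed for levels. Each region was tested with edgeR 4.0.16 (TMM scaling, quasi-likelihood test, genes passing filterByExpr with a minimum count of 10), with Benjamini-Hochberg adjustment over all genes of the region and a threshold of 0.05. Mouse values were tested with limma 3.58.1 (intensity trend, prior count 2), and differences between regions with an edgeR F test. Ratios were compared by exact two-sided permutation tests with 0.5 counts added. Values per spiny marker sum were added after seeing the data. The steps were checked on simulated data with known answers. Levels per kilobase used merged exons of GENCODE M21.

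The members, marker lists and tests were chosen with earlier results of these data known. The text names the 3 members, the receptors, the list genes that passed in Caudate putamen, SVZ or across regions, and the 5 genes of most similar pattern per member; Oprk1, Oprd1, Tacr3, Pnoc, Scg2 and Scg5 in the treatment comparisons, the markers called in Corpus callosum, and single libraries were picked after their values were seen. Regions of a mouse share the animal, but the treatment groups hold different mice, so no pairing was used between them. Deviations of regions of the same mouse correlated at 0.049 in the diet cohort and 0.12 in the plasma cohort, on average. Alternatives covered scaling, DESeq2 1.42.0, the count filter, the replicate block, the regions used and leaving out each mouse. Of the 238 libraries, 6 held under 2 M counts.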

Additional observations from a re-analysis of the deposited data

Results flagged for a closer look

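In groups of 4 or 5 mice, each gene in each group made 1 set of values, 111 sets in all. Of these, 15 held a value far from the rest by Dixon's criterion. Chance alone flags about 1 in 20 such sets (5.55 of 111), and values of the 3 genes in 1 library are not independent. Mouse 64 (aDR) accounted for 7 of the 15 and mouse 72 (PBS) for 4.

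In the library set of mouse 64, Penk was 6242 CPM in Caudate putamen (other aDR mice 2749 to 3761), 72.5 CPM in Motor cortex (52.7 to 56.2), 82.1 CPM in Visual cortex (39.9 to 49.3) and 52.4 CPM in Thalamus (1.15 to 14.5). Pdyn in mouse 64 was 47.9 CPM in Visual cortex (40.0 to 41.6) and 48.9 CPM in Choroid plexus (5.81 to 12), and Tac1 was 41.7 CPM in Pons (1.97 to 10.4).

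In mouse 72 the SVZ library held Tac1 at 302 CPM (other PBS mice 122 to 142), Penk at 1870 CPM (736 to 879) and Pdyn at 143 CPM (86.7 to 91.4). Its Entorhinal cortex library held Tac1 at 10.8 CPM (26.1 to 28.8).

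The other 4 values were all of Pdyn. It was 32.4 CPM in Thalamus of PBS mouse 76 (others 0.822 to 1.36), 4.11 CPM in Medulla of aDR mouse 62 (1.36 to 1.90), 8.73 CPM in Olfactory bulb of aDR mouse 65 (1.44 to 3.25) and 39.6 CPM in Choroid plexus of AL mouse 68 (6.43 to 9.55).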

How the results depend on the processing

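No member was called in any region under RLE size factors, plain library totals or no filter on low counts, in either cohort. With DESeq2, 1 member test of the plasma cohort was called (Pdyn in SVZ). The share of all genes called is not given for DESeq2 or for the region fits with a mouse left out. With each mouse left out, the plasma cohort gave 0 to 2 calls, the 2 being Tac1 and Pdyn in SVZ without mouse 72, and where 1 YMP library of Corpus callosum remained it was assumed to vary like the other group. Across the brain in the plasma cohort, Tac1 differed by 0.62 with the mouse as a replicate block (adjusted p = 0.0783 by limma), where 486 of 15768 genes were called. With no replicate block it differed by 0.56 (adjusted p = 0.00616 by limma), where 2629 of the 15768 genes were called. That setting treats the regions of a mouse as independent. In the region by treatment test, the replicate block changed no call of the 3 members. Over all genes, that test called 2 in the diet cohort and 124 in the plasma cohort. With the block it called 3 and 147. The count of all genes called across regions in the diet cohort was 272, 144 without an intensity trend, and 52 to 311 with each mouse left out. Differences near 0 changed sign in the diet cohort: Pdyn across regions was 0.0068 without Choroid plexus and Corpus callosum, and Pdyn in SVZ was -0.11 per spiny marker sum. Leaving out each mouse gave -0.083 to 0.35 for Penk and -0.34 to 0.032 for Pdyn in Caudate putamen, -0.083 to 0.34 for Pdyn in SVZ and -0.040 to 0.36 for Tac1 in Hypothalamus. Across regions it gave -0.15 to 0.067 for Tac1, -0.11 to 0.18 for Penk and -0.074 to 0.10 for Pdyn. In the plasma cohort Pdyn in Hypothalamus ran from -0.63 to 0.56. The ratio of Tac1 to Penk ran from -0.053 to 0.095 (diet) and -0.059 to 0.11 (plasma) in Caudate putamen and from -0.032 to 0.15 and -0.023 to 0.11 in SVZ. In the plasma cohort Pdyn to Penk ran from -0.37 to 0.11 in Caudate putamen and from -0.20 to 0.11 in SVZ, and Pdyn to Tac1 from -0.32 to 0.16 and from -0.21 to 0.064. The cause of these changes was not tested, beyond the smaller number of mice. Of the 5 genes most like each member in AL mice, PBS mice shared 3 for Tac1, 2 for Penk and 1 for Pdyn. Low counts limit Tac1 and Pdyn in Cerebellum. Both genes were too low there for a test in the plasma cohort, and Pdyn was also too low in the diet cohort.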
